A study of Mus musculus with 4 samples.

Results

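The glucose transporter gene *Slc2a1* and 9 genes of glycolytic enzymes, *Hk2*, *Gpi1*, *Pfkl*, *Aldoa*, *Tpi1*, *Pgk1*, *Eno1*, *Pkm* and *Ldha*, were examined in myeloid progenitors with and without a truncating *Bcor* deletion. They were picked by gene symbol, and all 10 were among the 12067 genes of the count table. Glycolysis splits glucose into pyruvate in the cytoplasm and yields ATP without oxygen, and lactate dehydrogenase turns the pyruvate into lactate. Glucose transporters bring the sugar in, and hexokinase, phosphofructokinase and pyruvate kinase catalyse the steps that run in one direction. In blood-forming cells the pathway is known as a main energy source of stem cells and of granulocytes, and many of its genes are targets of the oxygen-regulated factor Hif1a.

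The study asked what loss of the Bcor C terminus does to myeloid progenitors. Its 4 libraries were made from donor-derived (CD45.2+) KL cells, lineage-negative, c-Kit-positive, Sca-1-negative cells of the bone marrow, sorted 20 weeks after whole bone marrow was transplanted into *Ptprca* recipients. The BcorΔE9-10 group (n = 2) had the genotype scl-Cre-ERT +; Bcorfl/y, and the BcorWT group (n = 2) had the genotype Bcorfl/y, so both groups carried the floxed allele and only the mutant group the Cre transgene. The transgene places a tamoxifen-dependent Cre under a stem cell enhancer of *Scl* (*Tal1*), and donors were given tamoxifen at 3 to 6 months of age. Per the methods, recipients were female and sub-lethally irradiated, and animals for molecular work were male. Deletion of exons 9 and 10 shifts the reading frame, and the protein ends before the domain that binds the Polycomb complex. The methods also describe transplants of sorted KL cells, whereas the labels name whole bone marrow. No source used here ties a library to an animal, so p-values measure the spread between these libraries, which may be technical.

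RNA was counted with Quant-seq, which reads each transcript near its 3′ end, and the counts added up to between 3825289.5 and 6253100.5 per library. Levels are given as CPM, the usual unit for a gene's share of its library, scaled with edgeR's TMM factors and not divided by gene length, since each transcript gives 1 end. A level of 3 counts, taken as the smallest that can be read, corresponded to 0.489 to 0.876 CPM. The c-Kit gene *Kit* had 282, 380, 184 and 156 counts in BcorΔE9-10 replicates 1 and 2 and BcorWT replicates 1 and 2, and *Ly6a* (Sca-1) had 0, 20, 13 and 6. Genes of mature neutrophils were nevertheless abundant, with 9 marker genes summing to between 63423 and 155359 CPM. Of 7 T cell markers, 0 were in the table. *Bcor* had 104 and 113 counts in BcorΔE9-10 and 58 and 79 in BcorWT, and 3′ reads do not check the deletion of internal exons. The BcorWT libraries stood apart from each other. The lincRNA row *Gm42418* held 27.9% of the counts of BcorWT replicate 1 and 1.43% of those of BcorWT replicate 2, against 16.3% and 14.3% in BcorΔE9-10, and Pearson's correlation of log2 CPM across genes was 0.893 within BcorWT and 0.947 within BcorΔE9-10. *Xist*, expressed in female cells, had 64 and 101 counts in BcorWT and 13 and 24 in BcorΔE9-10.

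No member passed the test of BcorΔE9-10 against BcorWT. The largest differences belonged to *Pfkl* and *Pkm*, the phosphofructokinase and pyruvate kinase genes, and both rested on BcorWT replicate 2, where their levels were more than 3 times those of BcorWT replicate 1. The promoters of 4 members are shown first, *Pkm* and *Pfkl* because their levels varied most, and *Pgk1* and *Ldha* because they are textbook Hif1a targets. Each is the 300-base window from 250 bases before to 50 bases after a RefSeq start (GRCm38.p6), written 5′ to 3′ on the gene's strand. Capitals mark ACGTG or GCGTG, the core of the Hif1a binding site, on either strand, so that CACGT and CACGC are matches on the opposite strand, and CACGTG holds overlapping matches on both.

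*Pkm*, the second of its 2 windows, chr9:59656977-59657276, plus strand: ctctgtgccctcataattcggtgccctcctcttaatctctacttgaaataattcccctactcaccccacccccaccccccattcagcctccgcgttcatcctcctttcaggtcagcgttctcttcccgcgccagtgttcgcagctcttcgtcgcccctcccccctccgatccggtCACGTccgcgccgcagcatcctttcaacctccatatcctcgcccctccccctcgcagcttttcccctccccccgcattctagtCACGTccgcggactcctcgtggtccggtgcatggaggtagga
*Pfkl*, chr10:78009758-78010057, minus strand: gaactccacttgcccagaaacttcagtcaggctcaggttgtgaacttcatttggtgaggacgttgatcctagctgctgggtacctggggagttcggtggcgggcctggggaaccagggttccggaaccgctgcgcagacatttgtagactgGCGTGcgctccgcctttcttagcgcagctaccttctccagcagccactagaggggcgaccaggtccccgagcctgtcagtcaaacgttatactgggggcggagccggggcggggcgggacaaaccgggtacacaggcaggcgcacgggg
*Pgk1*, chrX:106186850-106187149, plus strand: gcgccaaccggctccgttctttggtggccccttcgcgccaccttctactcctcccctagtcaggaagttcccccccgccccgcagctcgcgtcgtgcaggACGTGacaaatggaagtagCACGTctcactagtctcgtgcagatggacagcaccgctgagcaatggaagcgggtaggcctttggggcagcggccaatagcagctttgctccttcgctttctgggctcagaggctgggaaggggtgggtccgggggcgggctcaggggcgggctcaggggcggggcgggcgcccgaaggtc
*Ldha*, the first of its 2 windows, chr7:46845554-46845853, plus strand: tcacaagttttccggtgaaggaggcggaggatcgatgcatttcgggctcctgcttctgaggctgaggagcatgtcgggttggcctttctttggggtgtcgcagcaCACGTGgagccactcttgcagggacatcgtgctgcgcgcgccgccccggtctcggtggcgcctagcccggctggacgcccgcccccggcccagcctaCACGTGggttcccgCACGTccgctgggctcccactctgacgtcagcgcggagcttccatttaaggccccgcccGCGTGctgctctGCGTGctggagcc

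The *Ldha* window held 5 matches to ACGTG and 2 to GCGTG, *Pgk1* held 2 to ACGTG, the *Pkm* window held 2 to ACGTG, and *Pfkl* held 1 to GCGTG. The first *Pkm* window held 0 of either. Of 15 *Ldha* transcripts in GENCODE M21, 5 start inside the *Ldha* window shown, and the first of these leaves 15 bases of it downstream. For these 5, most of what RefSeq counts as transcribed there lies upstream. The annotated gene begins at base 46841475, upstream of the window. The end of the window was not found whole in a protein-coding *Ldha* transcript of GENCODE M21. Among all members, 12 of 16 windows (75.0%) and 8 of 10 genes held a match, *Gpi1* and *Tpi1* being the exceptions. Among the 32851 mouse windows of this length, 43.8% held ACGTG or GCGTG, 19.6% held ACGTG and 32.4% held GCGTG. Windows of the same gene overlap in part for *Aldoa* and *Eno1*, and a match of letters is not evidence of binding.

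The genes for glucose uptake and the first step did not pass the test, with log2 fold changes above 0 for both. *Slc2a1*, which encodes the transporter Glut1 (chromosome 4, 119108711 to 119137983, plus strand, GRCm38), was the least abundant member. It had 24 and 24 counts in BcorΔE9-10 replicates 1 and 2 and 9 and 18 in BcorWT replicates 1 and 2, or 4.44, 3.91, 2.63 and 3.39 CPM. The genotypes did not overlap, with both mutant libraries above both BcorWT libraries, but the log2 fold change of 0.46 (standard error, SE, 0.61) had a 95% interval from -0.95 to 1.87 and an edgeR p of 0.475 (0.957 after Benjamini-Hochberg adjustment over all genes). A gap between the genotypes of this kind was found for 33.9% of all genes, and 2 of 10 members had one. In whole-population libraries such as these, fewer cells of a type and less RNA per cell cannot be told apart. *Hk2*, the hexokinase gene that traps glucose as its phosphate (chromosome 6, 82725025 to 82774454, minus strand), had 600 and 890 counts in BcorΔE9-10 and 404 and 644 in BcorWT. Its levels were 110.9 and 145 CPM in the mutant and 118 and 121 CPM in BcorWT, so the BcorWT libraries lay between the mutant libraries, with a log2 fold change of 0.10 (SE 0.32).

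**Figure D1:**
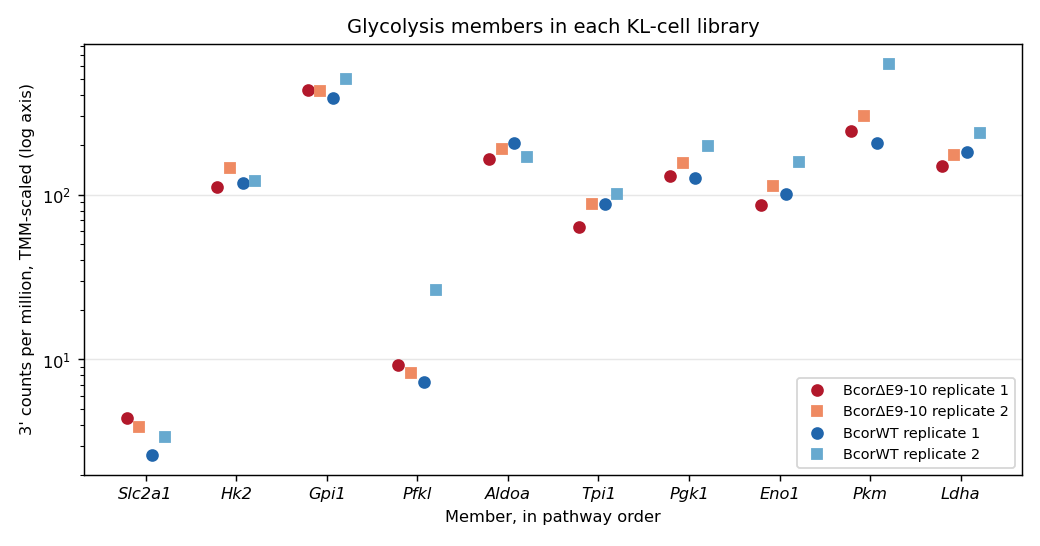
Levels of the 10 members in the 4 libraries, as TMM-scaled 3′ CPM on a log axis, in the order of the pathway. Circles are replicates 1 and squares replicates 2, in red tones for BcorΔE9-10 and blue tones for BcorWT. BcorWT replicate 2 is the highest point for 7 members and stands clear of the other libraries at 26.5 CPM for *Pfkl* and 622 CPM for *Pkm*.

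The next enzymes differed in their spread. *Gpi1*, glucose-6-phosphate isomerase (chromosome 7, 34201330 to 34230336, minus strand), was the most abundant member over the 4 libraries together, with 26.6% of all member counts, although in BcorWT replicate 2 *Pkm* led with 29.2% against 23.4% for *Gpi1*. Its counts were 2343, 2617, 1313 and 2655 in BcorΔE9-10 replicates 1 and 2 and BcorWT replicates 1 and 2, and its levels of 433 and 427 CPM in the mutant lay between 383 and 500 CPM in BcorWT. The log2 fold change was -0.04 (SE 0.33), and it was 0.01 when libraries were scaled by their totals. *Pfkl*, the liver-type phosphofructokinase that commits the sugar to glycolysis (chromosome 10, 77986947 to 78010083, minus strand), had 50 and 51 counts in the mutant libraries and 25 and 141 in BcorWT. At 9.24 and 8.31 CPM against 7.30 and 26.5 CPM, the mutant libraries and BcorWT replicate 1 lay within 1.27 times of each other, while BcorWT replicate 2 was 3.63 times BcorWT replicate 1. The log2 fold change was -0.96 (SE 0.60, 95% interval -2.34 to 0.42), with an edgeR p of 0.146 (0.945 after adjustment). It became 0.26 without BcorWT replicate 2 and -1.60 without BcorWT replicate 1.

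*Aldoa* and *Tpi1* split and interconvert the 3-carbon sugars. *Aldoa*, aldolase A (chromosome 7, 126795234 to 126800751, minus strand), had 884 and 1162 counts in BcorΔE9-10 and 701 and 900 in BcorWT, or 163, 189, 205 and 169 CPM. It was the only member highest in BcorWT replicate 1, the groups overlapped, with a log2 fold change of -0.08 (SE 0.32). *Tpi1*, triosephosphate isomerase (chromosome 6, 124810586 to 124814296, minus strand), had 342 and 538 counts against 300 and 539, and its levels were 63.2 and 87.7 CPM in the mutant and 87.6 and 101 CPM in BcorWT. Here the wider gap was within BcorΔE9-10, where replicate 2 was 1.39 times replicate 1, with a log2 fold change of -0.33 (SE 0.33) that was -0.11 without BcorΔE9-10 replicate 1 and -0.58 without BcorΔE9-10 replicate 2. The last bases of *Tpi1* overlap those of *Spsb2* on the opposite strand, *Gpi1* overlaps the lincRNA *Gm26762* on the opposite strand, and whether the counting used the strand is not given in the sources used here. *Spsb2* had 44 to 105 counts and *Gm26762* 5 to 29.

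The enzymes from phosphoglycerate kinase to pyruvate kinase were lower on average in the mutant without passing the test. Without BcorWT replicate 2 the difference turned for *Pgk1* and *Pkm* and all but vanished for *Eno1*. *Pgk1*, phosphoglycerate kinase (chromosome X, 106187100 to 106203699, plus strand), had 699 and 955 counts in BcorΔE9-10 and 434 and 1052 in BcorWT. Its lowest and highest levels, 127 and 198 CPM, were both in BcorWT, with the mutant libraries at 129 and 156 CPM between them, with a log2 fold change of -0.19 (SE 0.35) that turned to 0.17 without BcorWT replicate 2. *Eno1*, enolase 1 (chromosome 4, 150236721 to 150248879, plus strand), had 465 and 695 counts against 345 and 832, or 85.9, 113, 101 and 157 CPM. BcorWT replicate 1 lay between the mutant libraries, only BcorWT replicate 2 lay above them, and the log2 fold change of -0.37 (SE 0.36) was -0.02 without that library.

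*Pkm*, the muscle-type pyruvate kinase that makes pyruvate (chromosome 9, 59656368 to 59679375, plus strand), had 1305 and 1832 counts in BcorΔE9-10 and 702 and 3308 in BcorWT. Its levels were 241 and 299 CPM in the mutant, 205 CPM in BcorWT replicate 1 and 622 CPM in BcorWT replicate 2. The mutant libraries thus lay between the BcorWT libraries, of which replicate 2 was 3.04 times replicate 1, and the log2 fold change was -0.62 (SE 0.51, 95% interval -1.80 to 0.56). Its edgeR p was 0.261 (0.945 after adjustment). The direction turned with the library left out, from 0.40 without BcorWT replicate 2 to -1.21 without BcorWT replicate 1. As a share of the summed member counts, which does not depend on library scaling, *Pkm* made up 17.4% and 18.6% in BcorΔE9-10, 14.5% in BcorWT replicate 1 (95% Wilson interval 13.5 to 15.5%) and 29.2% in BcorWT replicate 2 (28.4 to 30.03%), intervals that cover counting error only. Gene counts do not separate the M1 and M2 splice forms of *Pkm*.

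*Ldha*, lactate dehydrogenase A (chromosome 7, 46841475 to 46855627, plus strand), had 803 and 1063 counts in BcorΔE9-10 and 622 and 1247 in BcorWT. At 148 and 173 CPM both mutant libraries lay below both BcorWT libraries, at 182 and 235 CPM, and *Ldha* was the only member with a gap in this direction, which 17.1% of all genes had. The log2 fold change was -0.37 (SE 0.32, 95% interval -1.12 to 0.38), with an edgeR p of 0.283 (0.945 after adjustment). It was -0.18 without BcorWT replicate 2 and -0.55 without BcorWT replicate 1. The gap of *Ldha* and that of *Slc2a1* were smaller than the spread the test allows for with 2 libraries in each genotype.

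Of the 10 members, 0 had an adjusted p under 0.05 in edgeR, limma-voom or DESeq2, and 0 had an unadjusted p under 0.05 in any of these. Over all genes edgeR called 0.0166% (2 genes) at the adjusted and 4.42% at the unadjusted threshold, 3.07% lower and 1.34% higher in BcorΔE9-10. Log2 fold changes were above 0 for 2 members and below 0 for 8, where 52.3% of all genes were below 0, and the members' median was -0.26 beside -0.03 for all genes. The 95% intervals of *Hk2* and *Aldoa* reached from -0.63 to 0.83 and from -0.82 to 0.65, so that changes of about 1.5 times in either direction lie within them. The 10 members together made up 0.149% and 0.157% of the counts of the BcorΔE9-10 libraries and 0.127% and 0.227% of the BcorWT libraries. The mean share differed by -0.0241 percentage points (BcorΔE9-10 minus BcorWT, 0.153% ± 0.00607 against 0.177% ± 0.0708, SD, n = 2 each). Without the counts of *Gm42418* the shares were 0.178% and 0.183% against 0.176% and 0.230%. The mutant libraries and BcorWT replicate 1 then lay close together, with BcorWT replicate 2 above them.

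**Figure D2:**
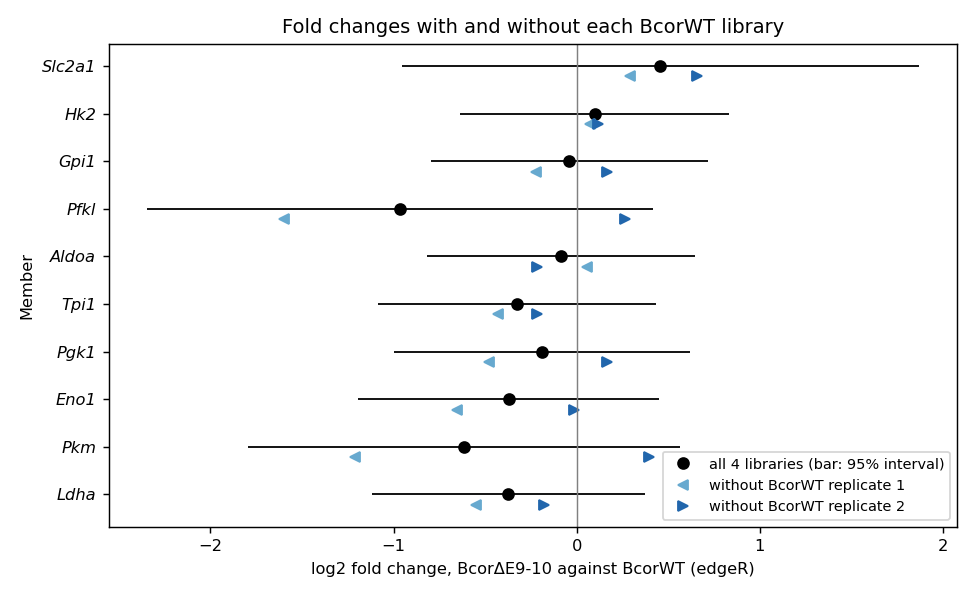
Log2 fold changes of the 10 members, BcorΔE9-10 against BcorWT, from edgeR. Black points use all 4 libraries and bars are 95% intervals, all of which include 0; light and dark blue triangles leave out BcorWT replicate 1 or replicate 2. *Pfkl* and *Pkm* move from -1.60 and -1.21 to 0.26 and 0.40 between these fits.

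The spread of the members lay mostly between the BcorWT libraries. BcorWT replicate 2 was the highest library for 7 of the 10 members, against 34.5% of all genes. The lowest library was BcorWT replicate 1 for 5 members (21.7% of all genes) and BcorΔE9-10 replicate 1 for the other 5 (20.9%). In all, 4 members (*Pfkl*, *Pkm*, *Pgk1* and *Eno1*) were at least 1.5 times as high there as in BcorWT replicate 1, against 23.4% of all genes. The median ratio of BcorWT replicate 2 to replicate 1 was 1.30 for the members and 0.973 for all genes. Without BcorWT replicate 2 the members' median log2 fold change was 0.14, with 6 members higher and 4 lower and 0 passing. Without BcorWT replicate 1 it was -0.45, and *Pfkl* (adjusted p = 0.0403) and *Pkm* (adjusted p = 0.04998) passed in edgeR, as did 596 genes of the whole table (4.94%). In that fit the only BcorWT library was assumed to vary like the mutant libraries.

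Other values moved with BcorWT replicate 2. Of 9 mature neutrophil markers, 6 were highest there, and their summed level was 63423 and 155359 CPM in BcorΔE9-10 and 94611 and 143974 CPM in BcorWT. The granule genes *Ngp* and *Lcn2* were 3.21 and 3.89 times as high in BcorWT replicate 2 as in replicate 1, while *S100a8* was at 0.993 times and *Camp* at 0.682 times. The 6 monocyte and macrophage markers in the table summed to 1411 and 2990 CPM in BcorΔE9-10 and 1787 and 3883 CPM in BcorWT. Among the 9 markers of KL progenitors the median ratio of BcorWT replicate 2 to replicate 1 was 0.896. *Kit* was at 53.7 CPM in replicate 1 and 29.4 CPM in replicate 2, and of the genes of primary granule proteins *Elane* was at 3.26 times but *Mpo*, *Prtn3* and *Ctsg* at 0.797, 0.932 and 0.896 times. The 4 megakaryocyte markers in the table summed to 108 and 141 CPM in BcorΔE9-10 and 109.5 and 266 CPM in BcorWT, with *Itga2b* and *Gp1bb* at 2.96 and 3.01 times, *Pf4* at 1.29 times and *Vwf*, at 4 counts in BcorWT replicate 2, at 0.0955 times. Markers of eosinophils, basophils and mast cells instead lay lower in both mutant libraries, with sums of 272 and 235 CPM against 570.04 and 715 CPM, log2 fold changes below 0 for 8 of 8 (52.3% of all genes) and no overlap of the genotypes for 7 (17.1% of all genes), a gap in the same direction as that of *Ldha*. Neutrophil markers were also higher in BcorΔE9-10 replicate 2 than in replicate 1, with *Pkm* 1.24 times as high in replicate 2 and *Pfkl* 1.11 times as high in replicate 1. The part of these genes, or of the share of *Gm42418*, in the levels of *Pkm*, *Pfkl* and *Ldha* was not tested.

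The rest of glycolysis gave no call either. Of 21 further glycolytic enzymes and isoenzymes, 11 were in the table, 4 with log2 fold changes above and 7 below 0 (median -0.23), and in edgeR, limma-voom and DESeq2 0 passed at the adjusted threshold, which also held for each of the lists that follow. *Pgam1*, phosphoglycerate mutase, was the most abundant at 423 to 529 CPM and had a log2 fold change of -0.13 (SE 0.32). *Bpgm*, which makes 2,3-bisphosphoglycerate in red cells, had 25, 24, 16 and 48 counts and a log2 fold change of -0.70 (SE 0.57). Without BcorWT replicate 2 these 2 values were 0.01 and -0.13, and without BcorWT replicate 1 they were -0.26 and -1.08. The red cell pyruvate kinase gene *Pklr* was the only one of them with an unadjusted p under 0.05. It had 13 and 16 counts in BcorΔE9-10 and 1 and 4 in BcorWT, a ratio of pooled counts of 4.39 (95% exact interval 1.68 to 14.5, counting error only) with an edgeR p of 0.0414 and an adjusted p of 0.945. Both mutant libraries lay above both BcorWT libraries. Erythroid markers lay higher in the same libraries. The genotypes did not overlap for 8 of 8 in the table (12 listed), against 16.8% of all genes. Their sums were 156 and 134 CPM in BcorΔE9-10 and 40.9 and 55.3 CPM in BcorWT, with *Rhag* at 1 and 0 counts in BcorWT. The part of these markers in *Pklr* was not tested.

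*Gapdh*, a widely used reference gene, had only 27.2 to 55.1 CPM, below 8 of the members in every library, and is named here after its values were seen. The annotation (GENCODE M21) holds 187 other genes and pseudogenes whose transcripts match those of *Gapdh* over at least 50% of their length at 90% identity or more, against 16 for *Ldha*, 8 each for *Pkm* and *Eno1*, 4 each for *Aldoa* and *Pgk1*, 2 for *Tpi1*, 1 for *Gpi1* and 0 for *Slc2a1*, *Hk2* and *Pfkl*. How reads that map to several places were counted is not given in the sources used here, and levels between these genes are uncertain to that extent.

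For *Eno1* and *Pgk1* the copies had counts of their own. The *Eno1* retrocopy *Eno1b*, 99.5% identical to an *Eno1* transcript over 1736 bases, had 60 and 647 counts in BcorΔE9-10 and 118 and 154 in BcorWT. This equalled 12.9% and 93.1% of the *Eno1* counts in the mutant libraries and 34.2% and 18.5% in BcorWT, so the copy varied 9.51 times between the mutant replicates while *Eno1* varied 1.32 times. The pseudogene *Gm4735* (chromosome 2, 80837141 to 80838442) had 20, 36, 13 and 7 counts. With both copies added, the log2 fold change of *Eno1* was -0.00 (SE 0.43) in place of -0.37. Of the *Pgk1* pseudogenes, *Gm5537* (chromosome 3, 58102996 to 58104247) and *Pgk1-rs7* (chromosome 12, 10898986 to 10900240) matched *Pgk1* without a mismatch over their 1252 and 1255 bases. *Gm5537* had 91, 216, 115 and 478 counts and *Pgk1-rs7* had 101, 219, 117 and 476, near-equal pairs in each library. Like *Pgk1* they were highest in BcorWT replicate 2, at 45.4% and 45.2% of the *Pgk1* counts there. With them added, the log2 fold change of *Pgk1* was -0.55 (SE 0.41, adjusted p = 0.945) in place of -0.19.

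**Figure D3:**
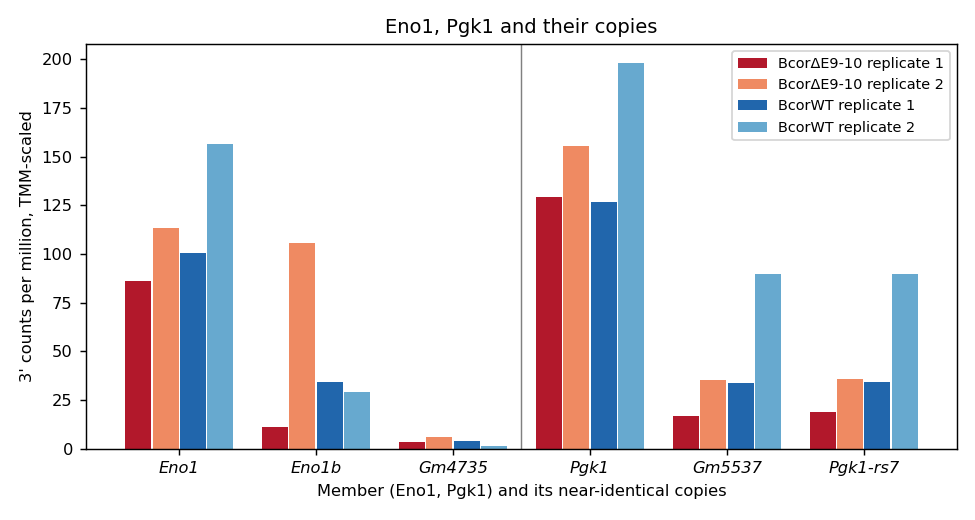
Levels of *Eno1* and *Pgk1* and of the copies of each in the table, as TMM-scaled 3′ CPM, with 1 bar for each library. *Eno1b* is near the level of *Eno1* in BcorΔE9-10 replicate 2 only (105 against 113 CPM), and *Gm5537* and *Pgk1-rs7* are highest in BcorWT replicate 2.

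Transport and regulation around the pathway gave no call. Of 14 genes for glucose and lactate transport, 9 were in the table, 4 higher and 5 lower (median log2 fold change -0.17), and 0 passed at either threshold. The arrestin *Txnip*, which lowers glucose uptake, was the most abundant, at 214 and 210 CPM in BcorΔE9-10 and 242 and 268 CPM in BcorWT, below BcorWT in both mutant libraries (log2 fold change -0.27, SE 0.31). *Slc2a3*, the Glut3 gene, was far more abundant than *Slc2a1*, with 284, 514, 177 and 608 counts, and like *Pkm* it was highest in BcorWT replicate 2, at 114 CPM against 51.7 to 83.8 CPM elsewhere. *Bsg*, the chaperone of lactate transporters, had a log2 fold change of -0.31 (SE 0.31), and the amino acid transporter gene *Slc16a10* one of 0.33 (SE 0.42), which was 0.02 without BcorWT replicate 1 and 0.76 without BcorWT replicate 2. In the same order *Bsg* was at -0.15 and -0.45. The 4 genes in the table that set fructose 2,6-bisphosphate, the activator of phosphofructokinase, had a median of 0.15, with *Pfkfb4* at 0.25, *Pfkfb2* at 0.17, *Tigar* at 0.13 and the most abundant, *Pfkfb3*, at -0.07, and 0 passed at either threshold. Their directions depended on the library left out, since the median was 0.30 without BcorWT replicate 2 and -0.09 without BcorWT replicate 1, with *Tigar* at 0.93 and -0.36 and *Pfkfb2* at -0.48 and 1.13. The median over the transport genes turned to 0.40 without BcorWT replicate 2.

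The pentose phosphate pathway, which branches off after hexokinase and makes NADPH, shared the pattern of *Pkm* most widely among the lists. All 11 of its listed genes were in the table, 9 of them were highest in BcorWT replicate 2 and 8 were at least 1.5 times as high there as in BcorWT replicate 1. *Tkt*, transketolase, the most abundant, had 4104 and 6502 counts in BcorΔE9-10 and 2832 and 13667 in BcorWT, or 758, 1060, 827 and 2572 CPM. Its log2 fold change was -0.90 (SE 0.54) and became 0.14 without BcorWT replicate 2. *Pgls*, 6-phosphogluconolactonase, was at 315 and 272 CPM against 333 and 848 CPM, which gave a log2 fold change of -1.01 (SE 0.47). Its edgeR p was 0.0629 (0.945 after adjustment), and the value became -0.18 without BcorWT replicate 2. *Prps2*, which uses the pathway's ribose, went the other way, with 20.0 and 14.2 CPM in the mutant above 11.7 and 10.3 CPM in BcorWT (log2 fold change 0.63, SE 0.40). The list's median was -0.31 with 2 genes higher and 9 lower, and it was 0.14 without BcorWT replicate 2. With all 4 libraries 0 genes of the list passed at either threshold. Without BcorWT replicate 1 the log2 fold changes of *Pgls* and *Tkt* were -1.53 and -1.504.

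**Figure D4:**
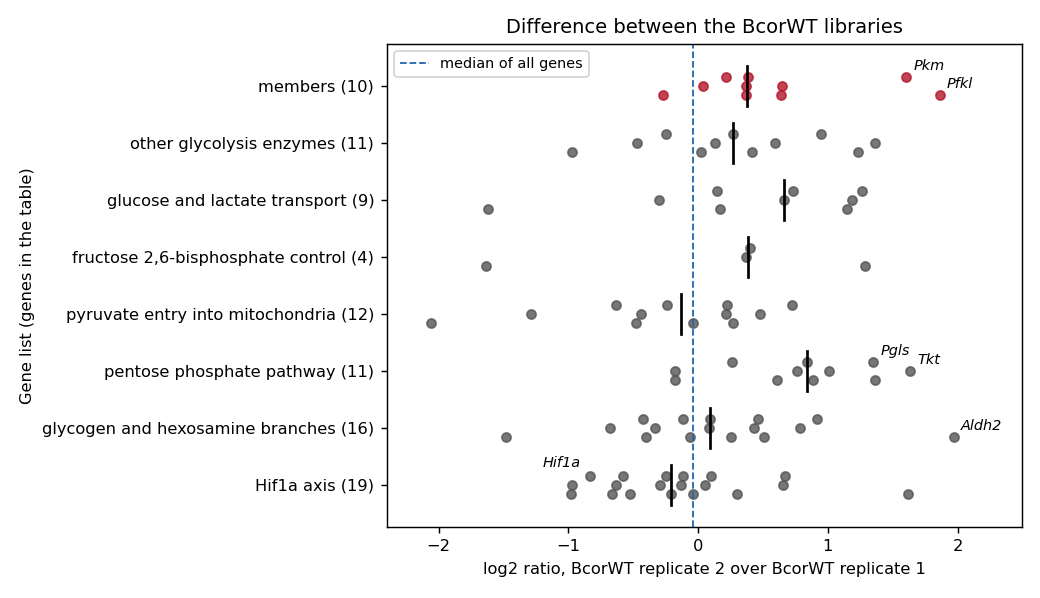
Log2 ratio of the level in BcorWT replicate 2 to that in BcorWT replicate 1 for the genes of each list, members in red. Short black lines are list medians and the dashed line is the median of all genes. *Pfkl* and *Pkm* lie near *Tkt* and *Aldh2* at the right, and the Hif1a axis lies mostly to the left, with *Hif1a* at 0.561 times.

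Of 15 genes that lead pyruvate into mitochondria, 12 were in the table, 8 higher and 4 lower (median 0.15), and 0 passed at either threshold. BcorWT replicate 2 was the highest library for 4 of them, or 33.3%, near the 34.5% of all genes. *Mpc1*, a subunit of the mitochondrial pyruvate carrier, had 208 and 293 counts in BcorΔE9-10 and 105 and 117 in BcorWT, with both mutant levels (38.4 and 47.8 CPM) above both BcorWT levels (30.7 and 22.02 CPM), a log2 fold change of 0.72 (SE 0.34) and an edgeR p of 0.0689 (adjusted p = 0.945). *Dld* and *Pdp1*, the dihydrolipoamide dehydrogenase and pyruvate dehydrogenase phosphatase genes, were both at 0.55 (SE 0.37 and 0.59), and *Pdha1*, the most abundant, at -0.04 (SE 0.31). Without BcorWT replicate 2 *Dld* was at 0.26, *Pdp1* at 0.33 and *Pdha1* at 0.08, and without BcorWT replicate 1 they were at 0.89, 0.77 and -0.15. In the glycogen and hexosamine branches, with all 16 listed genes in the table and a median of 0.08, 0 passed at either threshold. Its most abundant gene, *Aldh2*, is an aldehyde dehydrogenase and not an enzyme of either branch. *Aldh2* had 1824 and 2569 counts in BcorΔE9-10 and 1141 and 6930 in BcorWT, 3.91 times as high in BcorWT replicate 2 as in replicate 1 (log2 fold change -1.12, SE 0.59, and 0.18 without BcorWT replicate 2). Without BcorWT replicate 1 the log2 fold change of *Aldh2* was -1.79. *Gpd1l*, likewise of neither branch, and *Gbe1* were at 0.55 (SE 0.31) and 0.48 (SE 0.34), and at 0.69 and 0.32 without BcorWT replicate 2.

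The Hif1a axis, whose factor activates several members when oxygen is low, lay mostly on the other side of 0. Of 24 listed genes, 19 were in the table, 13 with log2 fold changes above and 6 below 0 (median 0.24), and 11 were lowest in BcorWT replicate 2, against 36.1% of all genes. *Egln1*, the prolyl hydroxylase that marks Hif1a for destruction and is itself a Hif1a target, had 167 and 222 counts in BcorΔE9-10 and 76 and 60 in BcorWT. Both mutant levels, 30.9 and 36.2 CPM, lay above 22.2 and 11.3 CPM, which gave a log2 fold change of 1.02 (SE 0.41). Its edgeR p of 0.0377 (0.945 after adjustment) was the only unadjusted p under 0.05 in the list. The log2 fold change of *Egln1* was 0.59 without BcorWT replicate 2 and 1.56 without BcorWT replicate 1. The demethylase gene *Kdm3a* was at 0.84 (SE 0.40), *Vegfa*, the vascular growth factor, at 0.59 (SE 0.34), and *Bnip3l*, a mitophagy receptor and the most abundant, at 0.54 (SE 0.33), all with both mutant libraries above both BcorWT libraries. *Hif1a* itself, named after its values were seen, had 237 and 232 counts in the mutant and 123 and 107 in BcorWT (log2 fold change 0.55, SE 0.37). Without BcorWT replicate 2 the log2 fold changes were smaller, at 0.18 for *Hif1a*, 0.54 for *Kdm3a*, 0.32 for *Vegfa* and 0.30 for *Bnip3l*. Genotypes did not overlap for 8 genes of the list in this direction and 1 in the other, where 16.8% and 17.1% of all genes did so, and 0 passed at the adjusted threshold.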

How the data were processed

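The 4 Quant-seq libraries were sequenced on single 3′ ends. According to the study's methods and the submitters' processing notes, the authors removed low-quality reads, trimmed with cutadapt (1.7 in the notes), mapped to mm10 (GRCm38) with HISAT2 and counted genes with featureCounts of Subread. The deposited counts are not normalized. BcorΔE9-10 replicate 2 and BcorWT replicate 1 were taken to hold expected counts of the deposited table, only because 1 row was not whole there. How the values of that row arose is not stated in the sources used here. Values were rounded to whole numbers for the fits, whereas library totals and shares were summed before rounding.

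Counts were fitted in edgeR 4.0.16 (R 4.3.3) with filterByExpr, which removed 0 of 12067 genes, TMM scaling and a quasi-likelihood F test. Fold changes used a prior count of 0.125, and p-values were adjusted over all genes by Benjamini and Hochberg (threshold 0.05). The standard error is the log2 fold change divided by the square root of F. No molecular identifiers are described, so Wilson and exact intervals cover counting error only, whereas the intervals of log2 fold changes come from the edgeR fit and include the spread between libraries. The floor was set at 3 counts, and its value in CPM followed from the scaled total of each library. Alternatives were DESeq2 size factors, library totals, no *Gm42418*, no filter, at least 10 counts, a block for the replicate number, limma-voom (limma 3.58.1), DESeq2 1.42.0, a prior count of 2, copies added, and each library left out in turn.

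Members and gene lists were chosen with earlier results of these data known, so lists are described by counts and medians. Every member was named, and from each list the 3 genes with the largest absolute log2 fold change and the one with the highest mean CPM. Positions come from GENCODE M21 (GRCm38), where 11953 of 12067 symbols (99.1%) were found, promoters from RefSeq (GRCm38.p6, all 10 members matched), and copies from blastn 2.17.0. Tables and figures used Python 3.11.15, pandas 2.3.3 and matplotlib 3.10.9.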

Additional observations from a re-analysis of the deposited data

How the results depend on the processing

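Across all genes edgeR called 2, against 5 with at least 10 counts in every library, 4 with limma-voom, 43 with DESeq2 and 6 to 596 with 1 library left out. The replicate numbers of the labels did not pair the libraries (correlation of deviations from the group means -0.0945), and with the replicate number as a block 14 genes and 0 members passed. With 1 library left out, 0 to 2 members passed, the members' median log2 fold change ranged from -0.45 to 0.14, and the difference in their summed share from -0.0742 to 0.0259 percentage points, with the ends of both ranges at the fits without BcorWT replicate 1 and without BcorWT replicate 2. Over the same fits the log2 fold change of *Hk2* ranged from -0.11 to 0.28, *Gpi1* from -0.22 to 0.16, *Pfkl* from -1.60 to 0.26, *Aldoa* from -0.22 to 0.055, *Pgk1* from -0.48 to 0.17 and *Pkm* from -1.21 to 0.40, while *Slc2a1* stayed above 0 (0.29 to 0.66) and *Tpi1* (-0.58 to -0.11), *Eno1* (-0.66 to -0.02) and *Ldha* (-0.55 to -0.18) below 0. *Gpi1* was 0.011 with library totals in place of TMM, a scaling that moved the median of all genes from -0.03 to 0.04. List medians ranged from -0.67 to 0.14 for the pentose phosphate pathway, -0.24 to 0.40 for transport, -0.09 to 0.30 for fructose 2,6-bisphosphate control, 0.00099 to 0.22 for pyruvate entry, 0.03 to 0.26 for glycogen and hexosamine branches, -0.26 to -0.07 for the other glycolytic enzymes and 0.18 to 0.39 for the Hif1a axis. The cause of these shifts was not tested. DESeq2's size factors, no filter, leaving out *Gm42418* and a prior count of 2 changed no direction or call of a member. With 9 counts of *Slc2a1* and 25 of *Pfkl* in BcorWT replicate 1, depth limits these genes most, and *Slc2a1* was not among the genes with at least 10 counts in every library. Over the fits with all 4 libraries, adjusted p-values of members ranged from 0.880 (limma-voom) to 1.000 (DESeq2).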
